A study of Mus musculus with 36 samples.

Results

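The 10 genes described here belong to the inflammasome and the interleukin 1 (IL-1) family, and they were chosen by name: Nlrp3, Pycard, Casp1, Casp4, Gsdmd, Il1a, Il1b, Il18, Il1rn and Il1rl1. All 10 of 10 were found among the 37417 genes of the count table, and each was measured in all 36 libraries, with 13 to 7754 reads per gene and library. The libraries are bulk mRNA of subcutaneous mouse tumours, 1 tumour per library, from wild type mice aged 12 weeks. Per the labels, MC38 (a colon adenocarcinoma line) and PancO2 (a pancreatic adenocarcinoma line) were grown in C57BL/6J mice and CT26 (a colon carcinoma line) in BALB/c mice. Each model received control IgG from rat serum, α-CTLA4 or α-PD-1, written anti-CTLA4 and anti-PD-1 here, at 10 mg/kg, which gave 9 groups of 4. Each model is 1 transplanted cell line in 1 host strain, so that line and strain cannot be told apart, and tumour, stroma and immune cells were sequenced together.

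Inflammasomes are cytosolic complexes that sense infection or cell damage. A sensor such as NLRP3 recruits the adaptor ASC, which activates caspase-1, and caspase-1 matures the IL-1β and IL-18 precursors and cleaves gasdermin D, whose fragments form pores in the membrane. In myeloid cells the mRNA of Il1b and Nlrp3 is itself induced by a priming signal, while secretion of the cytokines is controlled after translation, so mRNA levels do not report inflammasome activity. Macrophages, monocytes and neutrophils are the usual sources of IL-1β in tumours, and IL-1 acting on stromal cells induces neutrophil-attracting chemokines.

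Of all pairs among the 10 genes, those of Il1b, Il1a and Il1rn correlated most closely after centring on expression classes, described below. The 250 bases upstream of a start site of each are therefore shown first. The windows are from RefSeq (GRCm38.p6), read 5′ to 3′ on the strand of the gene, and capitals mark motif matches.
Il1b, chr2:129371140-129371389, minus strand: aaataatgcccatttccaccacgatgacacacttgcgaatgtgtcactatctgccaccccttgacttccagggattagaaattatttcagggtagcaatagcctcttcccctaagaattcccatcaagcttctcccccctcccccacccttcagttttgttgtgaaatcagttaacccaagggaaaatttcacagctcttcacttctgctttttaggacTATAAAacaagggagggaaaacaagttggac
Il1a, chr2:129309973-129310222, minus strand: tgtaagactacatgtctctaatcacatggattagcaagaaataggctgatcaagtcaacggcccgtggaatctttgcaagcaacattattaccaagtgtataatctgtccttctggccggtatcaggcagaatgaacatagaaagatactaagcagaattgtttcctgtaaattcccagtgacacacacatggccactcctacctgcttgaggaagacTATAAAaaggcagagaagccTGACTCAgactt
Il1rn, chr2:24336610-24336859, plus strand: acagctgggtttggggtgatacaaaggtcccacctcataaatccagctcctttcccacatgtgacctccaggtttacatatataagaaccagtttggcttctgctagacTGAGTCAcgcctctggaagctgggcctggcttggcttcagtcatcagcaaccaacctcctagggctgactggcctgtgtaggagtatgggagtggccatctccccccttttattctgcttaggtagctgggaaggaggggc
The capitals in the Il1b window are TATAAA, at −31 to −26 from the start site. The Il1a window held TATAAA at −32 to −27 and an AP-1 motif (TGANTCA, which reads the same on both strands) at −12 to −6. The Il1rn window shown held an AP-1 motif at −141 to −135. Windows of the other listed Il1rn start sites held none of the motifs searched. No 2 of these matches overlapped. Among 32807 upstream windows of 250 bases, 7.60% held TATAAA on the sense strand and 6.75% held the AP-1 motif on either strand. The other motifs searched on both strands were C/EBP (TTNNGCAA, in 9.57% of windows), ETS (AGGAAGT, 7.69%), an IRF motif (2.97%) and the NF-kB consensus (3.90%), and none of them matched in these 3 windows. RefSeq gave windows for 9 of the 10 genes. Elsewhere among them, the NF-kB consensus matched upstream of Nlrp3 and Casp4, C/EBP upstream of Il1rl1, and C/EBP and ETS upstream of Pycard. For Nlrp3 and Il1rl1 another listed window held no match. These matches describe letters and not factor binding.

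Totals assigned to genes ran from 7883106 to 41751023 reads per library, with a median of 27968270, and values are given in CPM, the reads of a gene scaled by that total, with no scaling by gene length, so levels are compared between libraries and not between genes. The labelled models did not follow expression, so the genes are described in 3 expression classes of 12 libraries each. In the H2-Ea class, H2-Ea-ps, a class II gene that C57BL/6 mice do not express, was at 32.8 CPM or more, and it reached at most 0.0845 CPM elsewhere. The other libraries were split by Cp (ceruloplasmin) at 1000 CPM into a Cp-high class, where the lowest value was 1389 CPM, and a Cp-low class, where the highest was 611 CPM. In 16 of 36 libraries H2-Ea-ps went against the strain in the label, so the labels are used below only as labels. The library labelled PancO2 anti-PD-1 71, of the H2-Ea class, stood apart. It was the shallowest, with 15.7% of its counts on mitochondrial genes against 2.80% to 4.35% elsewhere. Several results that include it are also given without it, and the other H2-Ea values include it.

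The summed level of 12 macrophage markers (Adgre1, Csf1r and others) ran from 954 to 1893 CPM in the H2-Ea class, 1202 to 2126 in the Cp-high class and 1916 to 2826 in the Cp-low class. That of 10 neutrophil markers ran from 21.96 to 120, 46.6 to 191 and 34.2 to 263 CPM. Of these, Ly6g and Camp had medians under 0.1 CPM in all 3 classes, so the neutrophil score used below rests on 6 genes that averaged at least 1 CPM, S100a8, S100a9, Csf3r, Cxcr2, Retnlg and Mmp8. Among other cell types, the median sums in the H2-Ea, Cp-high and Cp-low classes were 4024, 10041 and 4672 CPM for monocyte, 19.4, 66.4 and 53.9 for dendritic cell, and 41.8, 61.5 and 16.2 for mast cell markers. They were 14.8, 43.1 and 14.5 CPM for regulatory T cell, 31.7, 62.1 and 31.9 for T cell, and 3.39, 9.78 and 6.75 for keratinocyte markers. They were 2071, 4303 and 3558 CPM for fibroblast, 149, 91.6 and 156 for endothelial cell, and 14.01, 751 and 145 for epithelial or cancer cell markers, while no eosinophil marker averaged 1 CPM and Epx and Prg2 had medians under 0.1 CPM. Sums rest mostly on the most abundant genes of a list. For the monocyte markers, the mean log2 level had medians of 5.08, 5.40 and 6.70 in the H2-Ea, Cp-high and Cp-low classes. By that measure the Cp-low class was highest, and by the sum the Cp-high class. In bulk RNA, fewer cells of a type and less RNA per cell cannot be told apart.

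The sensor and the adaptor were both lower in the H2-Ea class than in the others at the median. Nlrp3 (GRCm38 chr11:59541568-59566956), the sensor, ran from 6.47 to 20.05 CPM in the H2-Ea class with a median of 12.0, from 8.81 to 19.2 with a median of 15.3 in the Cp-high class, and from 13.4 to 28.8 with a median of 18.01 in the Cp-low class. The 3 classes overlapped, and the lowest value was that of PancO2 anti-PD-1 71. Pycard (chr7:127989708-127993867), which encodes ASC, ran from 4.42 to 8.50 CPM in the H2-Ea class (median 4.91), from 5.37 to 13.7 in the Cp-high class (10.8) and from 8.78 to 15.0 in the Cp-low class (12.4). Every Cp-low library was above every H2-Ea library, the highest of which was PancO2 anti-PD-1 71.

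Both caspase genes overlapped between all classes, and the gene of the pore protein separated the Cp-low from the H2-Ea class. Casp1 (chr9:5298517-5307265), the caspase that matures IL-1β and IL-18, ran from 53.6 to 83.1 CPM in the H2-Ea class (median 69.6), 54.5 to 103 in the Cp-high class (69.3) and 42.7 to 71.9 in the Cp-low class (57.2). Casp4 (chr9:5308828-5336783), which encodes the caspase also called caspase-11 in mice and senses cytosolic lipopolysaccharide, ran from 29.3 to 67.7 CPM (44.5), 15.8 to 50.95 (27.1) and 25.4 to 43.9 (36.4) in the same order. The Cp-high class had the lowest median of Casp4 and the Cp-low class that of Casp1. Both genes lie side by side on the plus strand without overlap. Gsdmd (chr15:75862327-75867408), which encodes the pore protein gasdermin D, ran from 25.2 to 52.3 CPM in the H2-Ea class (43.0), 51.8 to 77.3 in the Cp-high class (63.7) and 60.97 to 95.2 in the Cp-low class (81.1). The Cp-low and H2-Ea classes did not overlap in Gsdmd, and the Cp-high class lay between them with an overlap on each side.

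The 2 IL-1 ligands spread widely within classes. Il1a (chr2:129299610-129309972), which encodes the alarmin IL-1α, ran from 1.10 to 3.17 CPM in the H2-Ea class (median 1.66), 0.845 to 5.83 in the Cp-high class (2.64) and 1.90 to 14.9 in the Cp-low class (7.66). Il1b (chr2:129364570-129371139), the gene of secreted IL-1β, ran from 10.2 to 31.7 CPM (17.2), 3.42 to 40.6 (11.1) and 1.83 to 101 (30.0). The Cp-low class thus held both the highest Il1b value, MC38 IgG 2, and the lowest, CT26 anti-PD-1 41, and the same libraries held the highest and lowest Il1a of that class. Il1rn (chr2:24336853-24351494), the gene of the IL-1 receptor antagonist that blocks both ligands, ran from 13.7 to 33.7 CPM (21.96), 5.07 to 66.2 (19.8) and 6.09 to 37.9 (19.2). Its class medians were close and its ranges nested.

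Il18 and the IL-33 receptor gene had the widest gaps between classes. Il18 (chr9:50554827-50581840), a ligand made by epithelial and myeloid cells, ran from 1.16 to 3.35 CPM in the H2-Ea class (median 1.92), 12.7 to 27.3 in the Cp-high class (20.5) and 3.10 to 5.34 in the Cp-low class (4.53). The lowest Cp-high library was above the highest library of either other class. Epithelial or cancer cell markers had sums of 577 to 1186 CPM in the Cp-high class and at most 430 elsewhere. Sums of monocyte markers were 8599 to 12654 CPM there and at most 5624 elsewhere, but a sum rests mostly on its most abundant genes. The mean log2 level of the same 6 monocyte markers was highest in the Cp-low class instead. It ran from 5.93 to 7.17 there, from 4.85 to 5.79 in the Cp-high class and from 4.59 to 5.65 in the H2-Ea class. Within the Cp-high class, the libraries with the highest Il18 (27.3, 26.95 and 26.2 CPM) had epithelial or cancer cell sums of 577, 626 and 644.5 CPM. Those with the lowest Il18 (12.7, 13.75 and 14.96 CPM) had sums of 1107, 951.5 and 1186 CPM. The part of either cell type in the Il18 level was not tested. Il1rl1 (chr1:40429570-40465415), which encodes ST2, the receptor for IL-33, ran from 145 to 369 CPM in the H2-Ea class (229), 4.34 to 24.5 in the Cp-high class (9.33) and 17.8 to 165 in the Cp-low class (83.3). The H2-Ea and Cp-high classes did not overlap, while the Cp-low class overlapped both. Sums of mast cell markers, a cell type known for ST2, ran from 23.0 to 116, 26.8 to 171 and 9.40 to 43.6 CPM in the H2-Ea, Cp-high and Cp-low classes, and their part in the Il1rl1 level was not tested. RefSeq lists more than 1 start site for Il1rl1, and gene counts do not separate the membrane receptor from its soluble form.

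**Figure D1:**
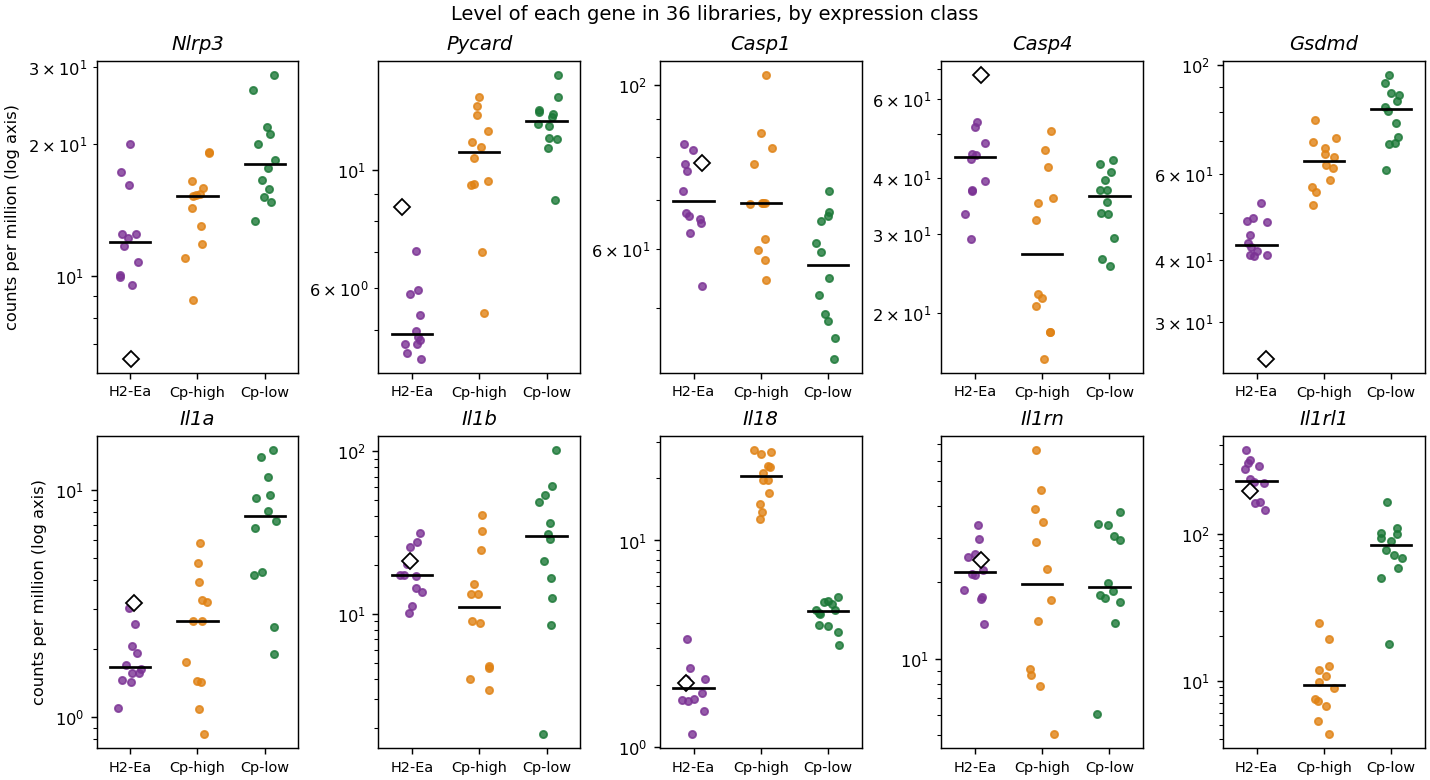
Level of each of the 10 genes in CPM (log axis) in the 36 libraries, by expression class, with 12 libraries a class, each point 1 library and each bar the class median. The open diamond is PancO2 anti-PD-1 71, and Il18 separates the Cp-high class while Il1b spreads from 1.83 to 101 CPM within the Cp-low class.

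These class differences are a description, since the classes were drawn from the same libraries. In a model of class, Cp-high over H2-Ea log2 fold changes ran from −4.56 ± 0.28 (SE) for Il1rl1 to 3.28 ± 0.14 for Il18. Cp-low over H2-Ea log2 fold changes were 1.91 for Il1a, 1.06 for Pycard and 0.77 for Gsdmd. Cp-low over Cp-high they were 2.92 for Il1rl1, 1.47 for Il1a and −2.23 for Il18. Between the Cp-high and H2-Ea classes 2 of 10 genes did not overlap, Il1rl1 and Il18, against 29.1% of all genes tested. Between the Cp-low and H2-Ea classes 2 did not overlap, Gsdmd and Pycard, against 24.8%. Between the Cp-low and Cp-high classes 1 did not, Il18, against 28.4%. The genes thus separated the classes no more often than genes at large. Between the Cp-low and H2-Ea classes the sums of macrophage, fibroblast (2944 to 4897 against 1515 to 2805 CPM) and epithelial or cancer cell markers (64.4 to 430 against 8.80 to 43.7 CPM) did not overlap either, and their part in Gsdmd and Pycard was not tested. Without PancO2 anti-PD-1 71 the same members did not overlap. The shares of all genes were then 37.1% (Cp-high and H2-Ea), 32.1% (Cp-low and H2-Ea) and 28.4% (Cp-low and Cp-high). With another scaling of library totals the sign of the log2 ratio of Casp1 between Cp-high and H2-Ea (0.02 against −0.05) and that of Il1rn between Cp-low and H2-Ea (0.02 against −0.04) turned, and both were near 0.

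Among the other genes of the pathway, 4 were picked after their values were seen. Il33, the gene of the ST2 ligand, had a median of 215 CPM in the Cp-high class, 20.3 in the H2-Ea class and 7.70 in the Cp-low class. Its lowest Cp-high library was at 137 CPM and its highest elsewhere at 35.1, so the ligand gene was highest in the class where the receptor gene was lowest. Il1r1, the signalling IL-1 receptor, had medians of 90.2, 67.1 and 148 CPM in the H2-Ea, Cp-high and Cp-low classes. Il1r2, the decoy receptor that binds IL-1 without signalling, had medians of 1.41, 4.48 and 11.9 CPM. Il1rap, the accessory chain shared by IL-1 and IL-33 receptors, ran from 93.4 to 146 CPM in the Cp-low class and reached at most 48.6 CPM elsewhere. For any 2 classes, 24.8% to 29.1% of all genes did not overlap, so such a gap is common. Among the genes named so far, the Cp-low class held the highest median of Il1a and Il1b, of the signalling receptor, of the decoy and of the accessory chain. It did not for Il1rn, whose median was lowest there (19.2 CPM), nor for Il18, Il33 and Il1rl1.

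The genes differed in their spread within a class. The SD of log2(CPM + 0.5) among the 12 libraries was 0.49, 1.14 and 1.47 for Il1b in the H2-Ea, Cp-high and Cp-low classes, larger than in 87.2%, 99.5% and 99.9% of genes. It was 0.35, 1.13 and 0.72 for Il1rn and 0.37, 0.71 and 0.85 for Il1a, larger than in 97.0% of genes or more for both genes in the Cp-high and Cp-low classes. For Il1rl1 it was 0.43, 0.68 and 0.78, larger than in 81.4%, 96.8% and 98.6% of genes, and Casp4 in the Cp-high class, at 0.58, exceeded 94.8%. Nlrp3, at 0.42 in the H2-Ea class, was there above Il1a and Il1rn. Gsdmd, at 0.26, 0.17 and 0.19, was near the middle of all genes. Il1b therefore differed 55.4-fold between the highest and lowest Cp-low library while Gsdmd differed 1.56-fold.

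Il1b, Il1a and Il1rn moved together when the classes were pooled. With each gene centred on its class mean, Spearman's rho over the 36 libraries was 0.85 between Il1b and Il1rn, 0.83 between Il1a and Il1rn and 0.80 between Il1a and Il1b. Fewer than 0.1% of 13627 genes were closer to Il1a than Il1b or Il1rn was. Il1rl1, also variable, had rho of 0.59 with Il1b, 0.49 with Il1rn and 0.41 with Il1a, and of 0.01 with Casp1 and 0.06 with Nlrp3. A separate pair was Casp1 with Gsdmd, at 0.70, and of the 10 genes Il1rn was nearest to Casp4, also at 0.70. Il18 had rho from −0.41 to 0.14 with the others over all libraries, and within the Cp-high class −0.87 with Il1rn and −0.79 with Casp4, against 0.16 and −0.25 in the H2-Ea class and 0.19 and 0.14 in the Cp-low class. With Pycard its rho was 0.52 in the H2-Ea class and −0.45 in the Cp-high class. For Nlrp3 the values within classes lay far apart, and rho was 0.89 with Il1b and 0.91 with Il1rn in the Cp-low class and −0.01 and −0.08 in the H2-Ea class. In the H2-Ea, Cp-high and Cp-low classes, rho between Il1b and Il1rn was 0.90, 0.80 and 0.85. It was 0.35, 0.87 and 0.94 between Il1a and Il1rn, and 0.55, 0.92 and 0.88 between Il1a and Il1b. Casp4 with Il1rn (0.96) and Casp1 with Gsdmd (0.95) were closer in the Cp-high class. Gsdmd with Il1rl1 (0.79) was closer than either Il1a pair in the H2-Ea class. These values are descriptions over points that share class means and library depth.

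**Figure D2:**
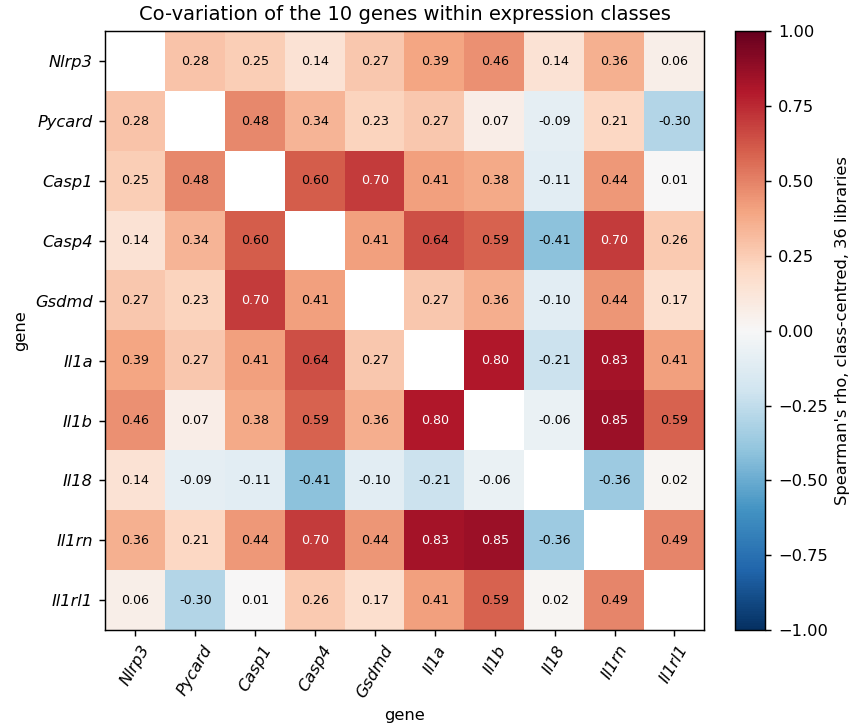
Spearman's rho between each pair of the 10 genes over 36 libraries, each gene centred on its class mean, with colour from −1 to 1 and the value printed in each cell. Il1a, Il1b and Il1rn form 1 block at 0.80 or above, Casp1 pairs with Gsdmd at 0.70, and Il18 is near or below 0 with most genes.

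The genes most like each member were ranked by the same measure. For Il1b they were Osm, the cytokine oncostatin M (rho 0.92), Zc3h12a, an RNase that degrades cytokine mRNA (0.90), and Cxcl2, a neutrophil chemokine (0.88). For Il1rn they were Hcar2 (0.89), Ier3 (0.89) and Hk2, a hexokinase (0.87), and for Il1a they were Il1rn, Il1b and Ccdc25 (0.79). Casp1 was closest to Idnk (0.84), Trim12c (0.82) and the interferon-induced GTPase Gbp9 (0.80). Casp4 was closest to Cd274, which encodes PD-L1 (0.81), H2-Q4 (0.79) and Mbd2 (0.78), and Gsdmd to Il18bp, the IL-18 binding protein (0.83), H2-T22 (0.83) and the class I gene H2-K1 (0.82). Nlrp3 was closest to Tnip1 (0.73), Tgfb1 (0.70) and Litaf (0.68). Pycard was closest to Lcp2 (0.80), AI662270 (0.79) and B430306N03Rik (0.78), and Il18 to Adam23 (0.79), 1500015O10Rik (0.75) and Cacna1g (0.73). In the H2-Ea and Cp-low classes, 1500015O10Rik (medians of 0.23 and 0.19 CPM) and Cacna1g (0.54 and 0.58 CPM) were near the floor. Il1rl1 was closest to Pdpn (0.71), S100a9 (0.70), a neutrophil marker, and Il13ra2 (0.70). Without PancO2 anti-PD-1 71 these rho values were 0.64 or higher.

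The next comparison asked whether the 10 genes followed neutrophil or macrophage markers among the 12 libraries of a class. A marker score is the mean log2(CPM + 0.5) of the markers, and a slope is the log2 change of a gene per unit of score, so a slope of 1 means that the gene doubles when the markers double. On the neutrophil score, Il1b had slopes of 0.90 ± 0.16 (SE) in the H2-Ea class, 1.29 ± 0.49 in the Cp-high class and 1.08 ± 0.26 in the Cp-low class. Those of Il1rn were 0.63 ± 0.14, 0.55 ± 0.66 and 0.48 ± 0.17, and those of Il1a 0.39 ± 0.30, 0.77 ± 0.37 and 0.58 ± 0.21. Il1rl1 had slopes of 0.63 ± 0.18, 1.201 ± 0.25 and 0.33 ± 0.22. All 4 genes were positive in all 3 classes, but none passed the adjusted test.

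By edgeR's quasi-likelihood F test, with p adjusted over all genes (Benjamini-Hochberg), 0 of 10 genes were called on the neutrophil score in each class, against 0% of all genes in the H2-Ea class, 0.0214% in the Cp-high class and 0.0856% in the Cp-low class. At an unadjusted p under 0.05, 5, 2 and 4 of the 10 passed, against 15.7%, 3.78% and 12.2% of all genes. Adjusted p for Il1b was 0.116, 1 and 0.242 in the 3 classes, and over the alternatives it ran from 0.000134 to 0.438, 0.549 to 1 and 0.0512 to 0.386. DESeq2 called 3 genes in the H2-Ea class (Il1b, Il1rn and Il1rl1), 1 in the Cp-high class (Il1rl1) and 1 in the Cp-low class (Nlrp3), while it called 3.22%, 0.121% and 0.784% of all genes. limma-voom called 0 of the 10 in each class, against 0%, 0.0429% and 0.0856%. With no filter on low counts edgeR called Il1b and Il1rn in the H2-Ea class, Il1rl1 in the Cp-high class and 0 in the Cp-low class, against 11%, 0.529% and 0.0885% of all genes. Without PancO2 anti-PD-1 71, whose neutrophil sum of 120 CPM held only 2.54 CPM of S100a8, the Il1b slope in the H2-Ea class was 0.97 and its adjusted p 0.0783, while that of Il1a went to 0.10 with an adjusted p of 0.950.

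Correlations with the neutrophil score were computed on the same libraries. For Il1b, Pearson's r was 0.811 in the H2-Ea class (permutation p = 0.00166, adjusted 0.0878), 0.577 in the Cp-high class (p = 0.0426, adjusted 1) and 0.759 in the Cp-low class (p = 0.00385, adjusted 0.309). Spearman's rho was 0.692, 0.643 and 0.797, with permutation p of 0.0157, 0.0279 and 0.0029 and adjusted p of 0.270, 0.995 and 0.391. Without the 2 libraries farthest from the median score, r was 0.788, 0.576 and 0.669, so the sign did not rest on them. For Il1rn, r was 0.786 in the H2-Ea class and 0.657 in the Cp-low class, and for Il1rl1 in the Cp-high class 0.816, which went to 0.515 without PancO2 IgG 48 and CT26 anti-CTLA4 36. In all, 60 relations were computed (10 genes, 2 scores, 3 classes), and 0 of the 10 genes passed in any class, against 0.4%, 0% and 0.0285% of genes by Pearson's r on the neutrophil score and 0% by Spearman's rho. On the macrophage score the shares of genes were 0.272%, 0% and 0.107% by Pearson's r and 0% by Spearman's rho.

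**Figure D3:**
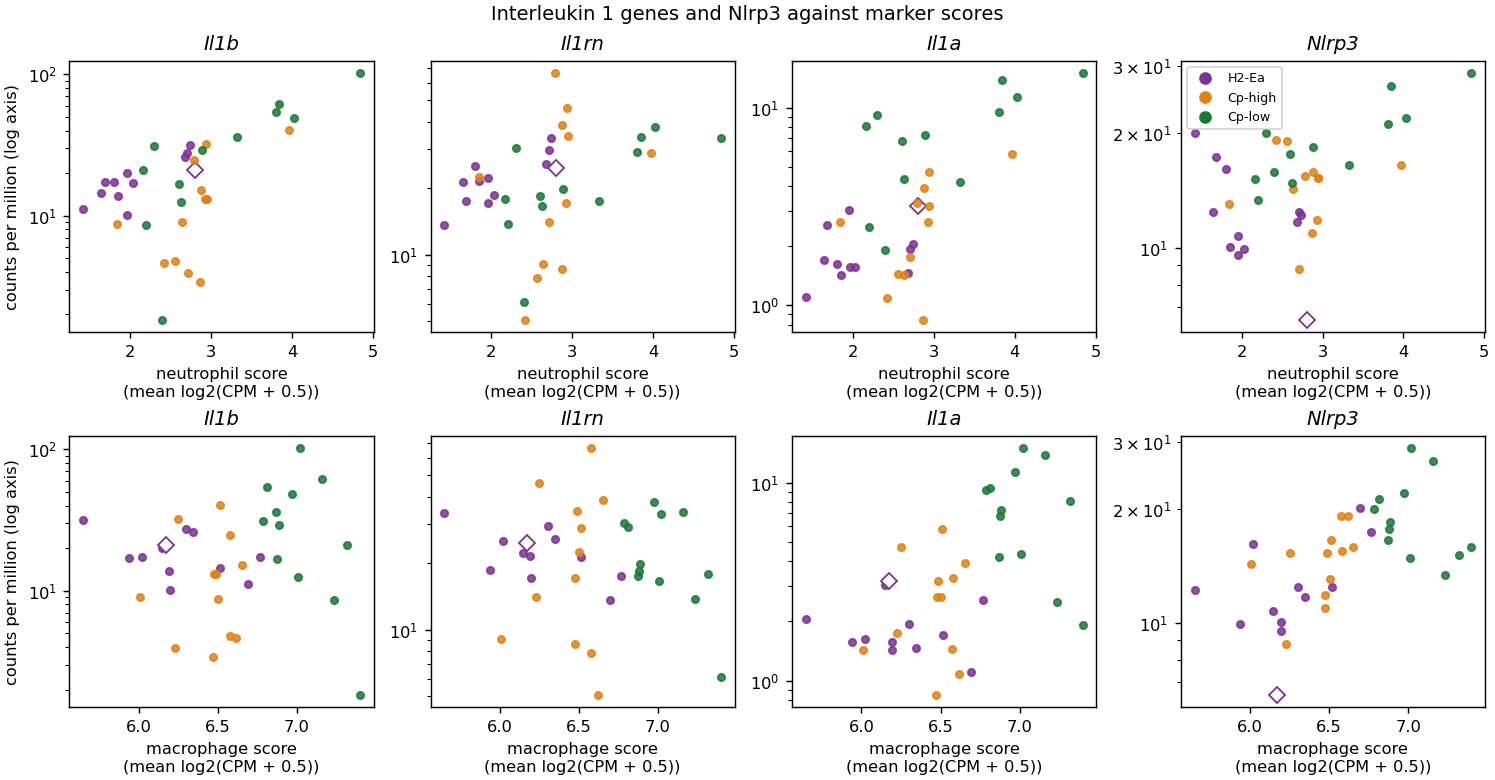
Il1b, Il1rn, Il1a and Nlrp3 in CPM (log axis) against the neutrophil score (upper row) and the macrophage score (lower row), each point 1 library and colours the 3 classes, with PancO2 anti-PD-1 71 as an open diamond. Il1b is higher at a higher neutrophil score within each class, while Nlrp3 runs upwards in the Cp-low class and, with PancO2 anti-PD-1 71 included, downwards in the H2-Ea class.

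On the macrophage score the same genes had no common direction. Il1b slopes were −0.76 ± 0.41 in the H2-Ea class, 0.17 ± 1.93 in the Cp-high class and −2.78 ± 2.10 in the Cp-low class, and those of Il1rn −0.77 ± 0.28, 1.32 ± 1.80 and −1.80 ± 0.91. The 12 macrophage markers spanned less than the neutrophil markers, which leaves these slopes with wide errors. Their sums differed 1.98-fold, 1.77-fold and 1.48-fold within a class, against 5.48-fold, 4.10-fold and 7.68-fold for neutrophil markers. The 5.48-fold span includes PancO2 anti-PD-1 71 at 120 CPM, and the next highest H2-Ea sum was 57.4 CPM. Again 0 of 10 genes were called in each class, against 0.415%, 0% and 0.435% of all genes, and 2, 1 and 0 passed an unadjusted p under 0.05. limma-voom called 0 in each, against 0.808%, 0% and 0.378% of all genes. DESeq2 called Pycard in the Cp-high class and none of the 10 in the others, against 1.34% of all genes there and 2.88% (H2-Ea) and 2.74% (Cp-low). Pycard had there a slope of 1.52 ± 0.42 (adjusted p = 0.216 in edgeR and 0.0463 in DESeq2, 0.0463 to 0.775 over the alternatives). Its r of 0.802 (permutation p = 0.00414, adjusted 0.254, Spearman's rho 0.559 with p = 0.0630) went to 0.229 without CT26 IgG 28 and PancO2 anti-PD-1 68, so it rests on those libraries. The scores correlated with each other at r of −0.509, 0.015 and −0.291 within the 3 classes.

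**Figure D4:**
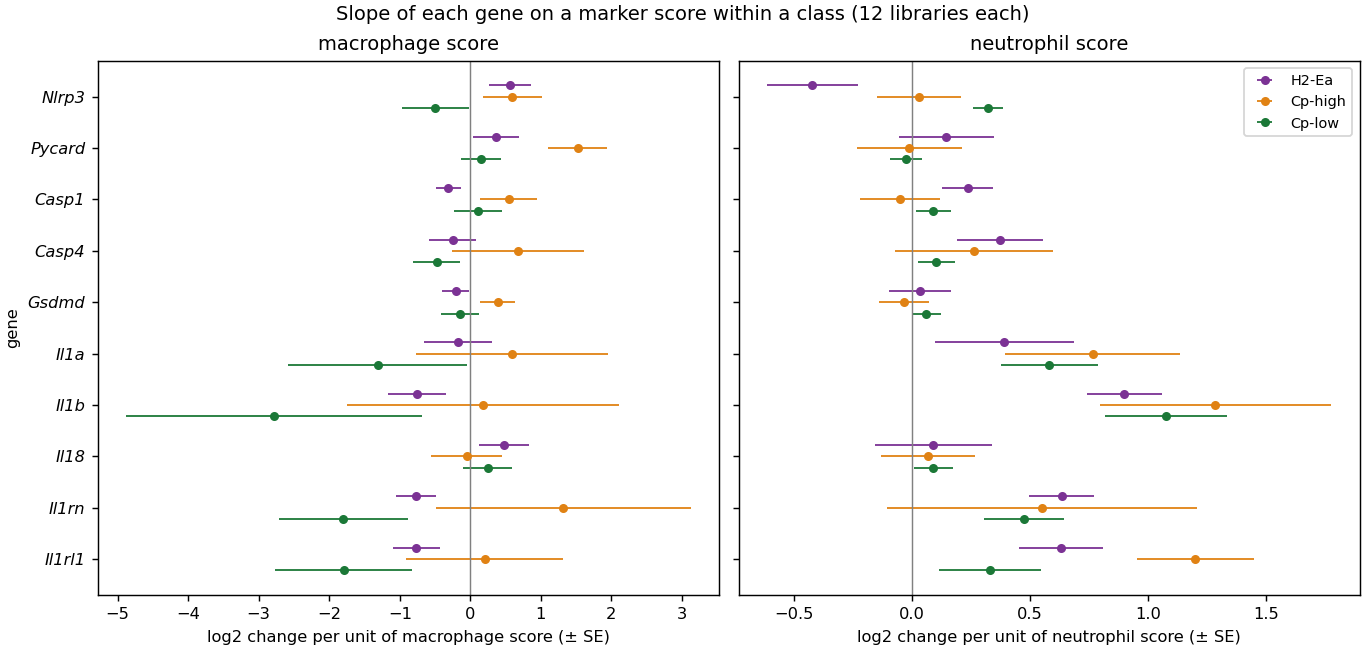
Slope of each gene on the macrophage score (left) and the neutrophil score (right), as log2 change per unit of score with its SE as a bar, in the H2-Ea, Cp-high and Cp-low classes of 12 libraries each. Il1b, Il1a, Il1rn and Il1rl1 lie above 0 on the neutrophil score in all 3 classes, and Pycard in the Cp-high class stands out on the macrophage score at 1.52.

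Nlrp3 was the only member called in edgeR's test of a neutrophil slope that differs between classes, and the call depended on 1 library. Its slope was −0.42 ± 0.19 in the H2-Ea class, 0.03 ± 0.18 in the Cp-high class and 0.32 ± 0.06 in the Cp-low class (adjusted p = 0.0412, edgeR's test of the class by score terms). The 1 of 10 genes called compares with 5.9% of all genes, and 1 call among 10 is close to that share. The H2-Ea slope includes PancO2 anti-PD-1 71, which had the lowest Nlrp3 (6.47 CPM) and the highest neutrophil score (2.80) of that class. The call was lost without PancO2 anti-PD-1 71, at an adjusted p of 0.670 with 0.0548% of all genes called, and with limma-voom, at 0.567 with 0.0551% called, in a range of 0.0164 to 0.567 over the other tests, scalings and filters. The Cp-low slope itself had an adjusted p of 0.131, and of 0.0136 without PancO2 IgG 51, where 0.157% of all genes were called. For the macrophage score, 0 of the 10 genes were called, against 0% of all genes, and Pycard alone had an unadjusted p under 0.05 (0.0438).

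Another 57 genes of the pathway were listed by role, of which 45 to 47 could be tested within a class. On the neutrophil score, 3 of 47 were called in the Cp-low class, where 0.0856% of all genes were, and 0 in the others. They were Cxcl2 (slope 1.53 ± 0.21, adjusted p = 0.00997), Il6 (1.72 ± 0.25, 0.0129) and Cxcl3 (1.90 ± 0.30, 0.0395), all induced by IL-1 in stromal and myeloid cells and named here as response genes. Cxcl2 kept its call in each alternative and without each library in turn. Il6 lost it with limma-voom (0.0810), and Cxcl3 was lost in 9 of 12 omissions of a library and kept without MC38 IgG 2, CT26 IgG 24 or PancO2 IgG 51. Of 8 response genes listed, 6 were tested in each class, but Cxcl1, Cxcl3 and Cxcl5 were not tested in every class, so the sets differ. All 6 had positive neutrophil slopes in each class, though that of Ptgs2 in the Cp-high class was 0.004 ± 0.64. Their medians were 0.99, 1.36 and 1.37 against medians near 0 for all genes (−0.01, −0.01 and 0.00). On the macrophage score 0, 3 and 0 of the 6 were positive. The inflammasome sensors, 7, 8 and 9 of them tested, had median neutrophil slopes of 0.22, 0.10 and −0.04. Receptors and decoys, 8 tested in each class, had medians of 0.08, 0.18 and 0.09, with no gene called.

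The macrophage score called 1 pathway gene, P2rx7, the ATP-gated channel that triggers NLRP3, in the H2-Ea class. Its slope was 0.84 ± 0.16 (adjusted p = 0.0427), and the call was lost in 10 of 12 omissions of a library, with adjusted p between 0.00504 and 0.401, and kept only without MC38 anti-CTLA4 14 or PancO2 anti-PD-1 71. Over the other alternatives adjusted p ran from 0.000113 to 0.127. Of the pathway genes, Cd14 (adjusted p = 0.0341) and Irak2 (0.0178) had neutrophil slopes that differed between classes, and both calls were lost without PancO2 anti-PD-1 71, at 0.693 and 0.816.

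The comparisons as labelled asked which genes differed between models and after each antibody. Between the 3 models under IgG, 0 of 10 genes were called and 0 had an unadjusted p under 0.05, against 0% of all genes called. Within a labelled model, 0 of 10 were called in each of the 6 antibody comparisons, again against 0% of all genes. Each labelled group mixes classes, and the spread within groups was large. Il1b averaged 38.5 ± 42.3 CPM (SD, n = 4) in MC38 IgG, 28.7 ± 13.5 in MC38 anti-CTLA4 and 10.6 ± 4.50 in MC38 anti-PD-1. It averaged 35.4 ± 26.2, 18.3 ± 12.4 and 9.49 ± 5.69 CPM in the CT26 groups and 32.04 ± 5.86, 10.53 ± 7.45 and 22.2 ± 13.2 CPM in the PancO2 groups. The anti-PD-1 over IgG log2 fold change of Il1b was −1.85 ± 0.66 in MC38 (edgeR, unadjusted p = 0.0175, adjusted 0.9999) and −1.85 ± 0.73 in CT26 (0.0287, adjusted 1), and that of anti-CTLA4 in PancO2 was −1.61 ± 0.66 (0.0319, adjusted 1). Il1a in CT26 under anti-PD-1 and Il1rn in PancO2 under anti-CTLA4 were the only others at an unadjusted p under 0.05, at −1.55 and −1.07. Both antibodies were set against the same IgG libraries.

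With class in a fit of all 36 libraries, 0 of 10 genes were called for either antibody, against 0% of all genes. Il1b had a log2 fold change of −0.91 ± 0.42 under anti-PD-1 (edgeR, unadjusted p = 0.0390, adjusted 0.929) and of −0.78 under anti-CTLA4 (0.0564). Nlrp3 under anti-PD-1 (−0.29, 0.0458) and Il1rl1 under anti-CTLA4 (−0.54, 0.0298) also had an unadjusted p under 0.05. The DESeq2 and limma-voom tests called 0 as well.

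A comparison of treatments within 1 class was added after the data were seen. In the Cp-low class, Il1b was at 29.1, 31.0, 54.2, 61.3 and 101 CPM in the 5 IgG libraries and at 1.83, 8.55 and 12.4 CPM in the 3 anti-PD-1 libraries, which are labelled CT26 (2) and MC38 (1). Il1a ran from 7.25 to 14.9 CPM under IgG and from 1.90 to 4.34 under anti-PD-1, Il1rn from 19.9 to 34.1 and 6.09 to 16.7, and Nlrp3 from 18.4 to 28.8 and 13.4 to 15.8. In these 4 of 10 genes every anti-PD-1 library was below every IgG library, which held for 3.19% of all genes. The 4 genes moved together in this class, with Spearman's rho of 0.85 to 0.94 between them, so they are not 4 separate results. The log2 fold changes were −2.87 ± 0.63 for Il1b, −1.91 ± 0.37 for Il1a, −1.28 ± 0.35 for Il1rn and −0.65 ± 0.16 for Nlrp3.

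None of the 4 passed edgeR's adjusted test in the Cp-low class, which called 0% of all genes (adjusted p = 0.220, 0.193, 0.274 and 0.225 in the same order, unadjusted p = 0.000776, 0.000200, 0.00326 and 0.00150). DESeq2 called all 4 and 1.65% of all genes, and limma-voom called 0. Neutrophil marker sums in these libraries ran from 36.2 to 263 CPM under IgG and from 34.2 to 49.4 under anti-PD-1, and macrophage sums from 1933 to 2424 and from 2196 to 2826. Their part in the result was not tested. The 4 anti-CTLA4 libraries of the class, at 16.7 to 48.7 CPM of Il1b, lay above the anti-PD-1 libraries and overlapped the IgG libraries.

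In the other classes Il1b overlapped between anti-PD-1 and IgG libraries. It ran from 10.2 to 31.7 CPM under anti-PD-1 and 13.7 to 27.5 under IgG in the H2-Ea class, and from 3.95 to 32.2 and 8.99 to 40.6 CPM in the Cp-high class. Under anti-PD-1, 0 of 10 genes were lower in every library in these classes, against 1.13% (H2-Ea) and 2.29% (Cp-high) of all genes, and under anti-CTLA4 0 of 10 in the H2-Ea class (1.31%) and in the Cp-low class (0.171%). In the Cp-high class, Il1rl1 was lower in all 4 anti-CTLA4 than in all 3 IgG libraries, which held for 2.49% of all genes, with a log2 fold change of −1.24 ± 0.39 (edgeR, unadjusted p = 0.00796, adjusted 0.976). In the H2-Ea class it was −0.70 ± 0.19 (0.00359, adjusted 1). For either antibody edgeR and DESeq2 called 0 of the 10 genes in both classes, and 0 for anti-CTLA4 in the Cp-low class. Of all genes, edgeR called 0% in each, and DESeq2 0.223% for anti-PD-1 in the Cp-high class, 0.00612% for anti-CTLA4 in the Cp-low class and 0% in the others. Whether the response differs between classes was not tested.

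**Figure D5:**
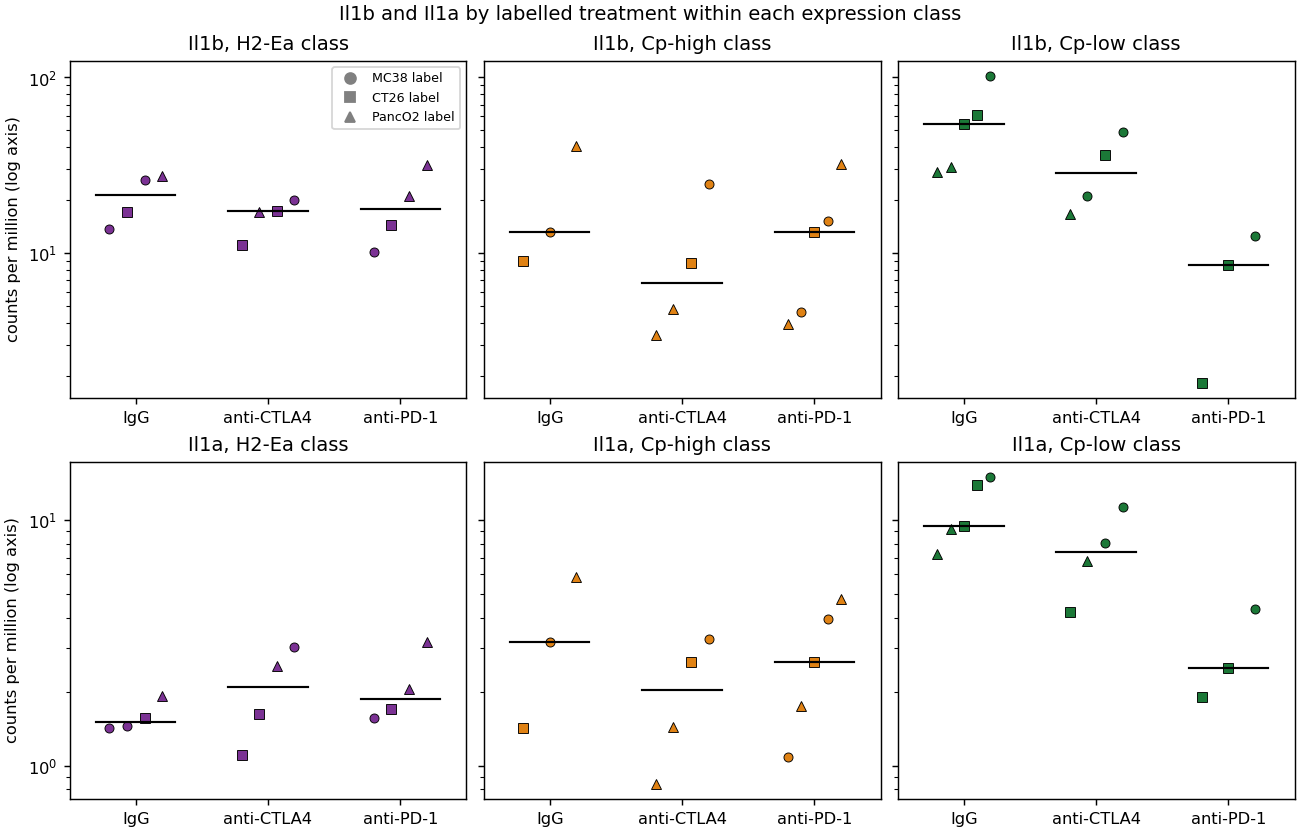
Il1b (upper row) and Il1a (lower row) in CPM (log axis) by labelled treatment within the H2-Ea, Cp-high and Cp-low classes, each point 1 library, shapes the labelled model and bars the median. In the Cp-low class the 3 anti-PD-1 libraries, at 1.83 to 12.4 CPM of Il1b, lie below the 5 IgG libraries, which start at 29.1 CPM.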

How the data were processed

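Per the labels, polyadenylated RNA of each tumour was turned into 1 sequencing library (TruSeq RNA kit V2). The deposited table holds unnormalized gene counts. For these the authors aligned reads to the mm10 build through TopHat with Bowtie and let HTSeq assign them to Ensembl identifiers (the submitters' processing notes also list Bowtie2 and FastQC 0.11.5). The Ensembl release and the use of strand are not given in the sources used here. The 5 summary lines that name no gene (44.8% to 63.4% of reads, 86.5% in PancO2 anti-PD-1 71) were left out of totals and tests. Each of the 36 columns matched 1 label. Nothing in the labels pairs mice.

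Counts were tested with edgeR 4.0.16 (filterByExpr, TMM, robust quasi-likelihood F tests, R 4.3.3), two-sided, with Benjamini-Hochberg adjustment over all genes and a threshold of 0.05. Labelled models were compared among 12 IgG libraries, treatments within 12 libraries of a model, and slopes within 12 libraries of a class. Standard errors are the log2 value divided by the square root of F. Correlations used log2(CPM + 0.5) and 100000 permutations (scipy 1.17.1, numpy 2.4.6, pandas 2.3.3, Python 3.11.15), and figures matplotlib 3.10.9. Alternatives were DESeq2 1.42.0, limma-voom 3.58.1, DESeq2 size factors, other filters, a class or depth term, both scores in 1 fit, 2-marker scores and omission of libraries. The omission of each library from the slopes and the treatment comparison within a class were chosen after the data were seen. The fits and the correlation step were tested on simulated data.

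The 10 genes, the classes, the marker lists and the pathway list were chosen with earlier results of these data known. All 10 genes are named throughout, pathway genes where called (at most 3 in each direction), and the 3 genes most like each member among those of at least 1 CPM. Positions are from the GENCODE annotation of GRCm38. Genes with near-identical copies can lose reads in such counting. Depth bounds the rarest values, since the lowest member count was 13 reads. Each p-value of a fit sets a change or slope against the spread between tumours. In labelled groups that spread includes differences between classes.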

Additional observations from a re-analysis of the deposited data

Results flagged for a closer look

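Each gene was checked in each of the 9 labelled groups of 4, 90 groups in all, for a library far from the other 3, with a gap above Dixon's critical value of 0.829 of the range. Chance gives this in about 1 in 20 groups, and it was seen in 10 of 90. In several of these the library also belonged to another expression class than its group mates. Il18 stood high in the single Cp-high library of 4 groups: 22.7 CPM in CT26 IgG 28 (next 4.92), 19.6 CPM in CT26 anti-PD-1 46 (next 4.47), 19.7 CPM in MC38 IgG 7 (next 4.39) and 23.0 CPM in PancO2 IgG 48 (next 4.60). Pycard stood low at 4.71 CPM in MC38 anti-CTLA4 14 (next 12.5), the single H2-Ea library of its group, and Casp1 at 42.7 CPM in PancO2 anti-CTLA4 61 (next 66.5), the single Cp-low library of its group.

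MC38 IgG 2, the single Cp-low library of its group, stood high in Il1a at 14.9 CPM (next 3.19) and in Il1b at 101 CPM (next 25.9), and it also had the highest neutrophil marker sum of all libraries, 263 CPM. MC38 anti-CTLA4 10 stood high in Il1b at 48.7 CPM (next 24.7), with a neutrophil marker sum of 134 CPM. Il1rn stood low at 19.9 CPM in PancO2 IgG 49 (next 28.8), which shares the Cp-low class with 1 other library of its group.

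The neutrophil slope of Nlrp3 was called as different between the 3 classes by a test of the difference itself (adjusted p = 0.0412, edgeR), where 5.9% of all genes were called. It was no longer called without PancO2 anti-PD-1 71 (0.670), where 0.0548% of all genes were.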

How the results depend on the processing

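Of the results that answer a comparison, 385 values under the alternatives stayed the same and 10 moved. These values are counts of members called or not overlapping. Where 0% of all genes were called, a count of 0 had little room to move, so this tally cannot show robustness. Of the values for single genes, 790 stayed the same, 32 were weaker, 14 stronger and 16 reversed. Members called on the neutrophil score went from 0 to 2 (no filter on low counts) and 3 (DESeq2) in the H2-Ea class, from 0 to 1 with each of these in the Cp-high class, and from 0 to 1 with DESeq2 in the Cp-low class, where the omission of single libraries gave 0 to 1. The share of all genes called moved as well, in the H2-Ea class from 0% to 11% (no filter) and 3.22% (DESeq2), in the Cp-high class from 0.0214% to 0.529% and 0.121%, and in the Cp-low class from 0.0856% to 0.784% (DESeq2) and 0.157% (without PancO2 IgG 51). On the macrophage score DESeq2 gave 1 in place of 0 in the Cp-high class (1.34% of all genes in place of 0%). For the difference of neutrophil slopes between classes, the 1 call became 0 with limma-voom (0.0551% of all genes in place of 5.9%) and 0 without PancO2 anti-PD-1 71 (0.0548%). For anti-PD-1 in the Cp-low class DESeq2 gave 4 in place of 0 (1.65% of all genes in place of 0%). Among single genes, the sign turned for the neutrophil slope of Il1a in the H2-Ea class (−0.030 with S100a8 and S100a9 alone), and for the macrophage slopes in the Cp-high class of Il1b (−0.068 with both scores in 1 fit, −2.05 with Adgre1 and Csf1r alone) and of Il1rn (−0.215 with those 2 markers). Leaving out single libraries, the Nlrp3 neutrophil slope in the Cp-high class ran from −0.14 to 0.093 and the Il1b macrophage slope there from −0.98 to 1.72. Likewise the Il1b log2 fold change ran from −0.43 to 0.16 (anti-PD-1, H2-Ea class), −1.15 to 0.34 (anti-PD-1, Cp-high class) and −0.78 to 0.66 (anti-CTLA4, MC38). The causes were not tested. No paired analysis was possible because each mouse number names 1 library. With 12 libraries a class and 4 a group, small slopes and changes could not be detected, and intervals of the 3-library groups rest on few tumours.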

Other observations

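Single libraries carried several marked values at once, given here without a comparison. PancO2 IgG 48 had the highest Il1b (40.6 CPM), Il1a (5.83) and Il1rl1 (24.5) of the Cp-high class, and also the highest sums of neutrophil (191 CPM), mast cell (171 CPM) and keratinocyte markers (554 CPM) in that class. CT26 anti-PD-1 41 had the lowest Il1b (1.83 CPM), Il1a (1.90), Il1rn (6.09) and Il1rl1 (17.8) of the Cp-low class, together with the highest macrophage sum of all libraries (2826 CPM) and a neutrophil sum of 49.4 CPM. PancO2 anti-PD-1 71 had the highest Casp4 (67.7 CPM), Pycard (8.50) and Il1a (3.17) and the lowest Nlrp3 (6.47) and Gsdmd (25.2) of the H2-Ea class, with a regulatory T cell marker sum of 175 CPM.

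Response genes chosen after their values were seen showed the class as well as the tumour. Cxcl1, a neutrophil chemokine, had medians of 14.6 CPM in the H2-Ea class, 0.320 in the Cp-high class and 49.1 in the Cp-low class, while Cxcl5, a related chemokine, had medians of 3.16, 129 and 2.60 CPM. The lowest Cp-high library for Cxcl5 was at 51.9 CPM and the highest elsewhere at 19.96 CPM. Of all genes, 29.1% did not overlap between the Cp-high and H2-Ea classes and 28.4% between the Cp-low and Cp-high classes. Ptgs2, which encodes cyclooxygenase-2, had medians of 445, 149 and 144 CPM.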
